A study of Rattus norvegicus with 6 samples.

Results

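The genes described here encode the enzymes and carriers through which neurons make, package, recapture and break down dopamine, noradrenaline and, for some of them, serotonin. They are 9 genes: the synthetic enzymes Th, Ddc and Dbh, the plasma membrane carriers Slc6a2 and Slc6a3, the vesicular carriers Slc18a1 and Slc18a2, and the monoamine oxidases Maoa and Maob. They were taken by gene name, with earlier results of these data known, and their probes were found through the RefSeq transcript that each array probe reports. All 9 genes were on the array, among 15168 genes with a symbol. They had 11 of its 30367 distinct probes, and 10 of these 11 were among the 20657 probes tested. Brain RNA came from 6 male rats of Wistar background, aged 15 weeks and kept without exercise. Of these, 3 were SPORTS rats, a mutant line described as hyperactive, and 3 were wild type, and each rat had 1 single-colour Agilent array. The labels give no region of the brain, and they name no gene or allele for the SPORTS mutation.

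Catecholamines are made from tyrosine. Tyrosine hydroxylase forms L-DOPA and needs tetrahydrobiopterin as cofactor, aromatic L-amino acid decarboxylase turns L-DOPA into dopamine and 5-hydroxytryptophan into serotonin, and dopamine beta-hydroxylase turns dopamine into noradrenaline inside vesicles. The neurons that carry out these steps are few and lie in small nuclei, dopamine neurons mainly in the midbrain, noradrenaline neurons in the locus coeruleus and other groups of the pons and medulla, and serotonin neurons in the raphe. Monoamine oxidases are made much more widely, Maob largely in astrocytes and serotonin neurons, so that a block of brain can hold much monoamine oxidase transcript and little transcript of the other genes.

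The number of probes well above background ranged from 20325 to 23261 across the arrays, with 0 saturated spots. A signal is a log2 value minus the 75th percentile of its array, so that a probe at that percentile reads 0 and a difference of 1 is a doubling. Values of different probes are not compared with each other. Replicate numbers were given in order of deposition and only name the rats. Per the file headers, all 6 arrays shared 1 slide: wild type 1 and wild type 2 lay in its row 1, and wild type 3 and all SPORTS arrays lay in row 2. Row 1 held no SPORTS array. A difference with slide row as a block therefore sets SPORTS against wild type 3 alone, and equals the difference within row 2. An effect of slide row and the loss of wild type 1 and wild type 2 cannot be told apart there. Differences are SPORTS minus wild type, with the SE of limma's linear model and an adjusted p over all tested probes (Benjamini-Hochberg, threshold 0.05). The number of arrays limits the precision, and an exact permutation test of 3 rats against 3 cannot give a two-sided p below 0.1. Brain markers were well expressed: all 7 pan-neuronal markers on the array were tested. Their summed linear signal, in multiples of the 75th percentile of the array, spanned 53.4 to 54.8 for the wild type rats and 50.3 to 50.8 for the SPORTS rats. Of these 7 markers, 2 passed the threshold as lower in SPORTS and 0 as higher, and both calls ended when slide row was a block. The sum of the striatal list was 29.1 to 34.1 for wild type, against 9.60 to 10.9 for SPORTS, and all 8 of its genes were lower in SPORTS. All 6 markers of meninges and fibroblasts were higher in SPORTS, with a sum of 14.8 to 17.2 against 8.81 to 10.7 for wild type, and 3 of 8 astrocyte markers were higher, with a sum of 76.9 to 79.2 against 66.2 to 69.5. When slide row was a block, 5 of the 6 meningeal calls were kept and the astrocyte calls were lost. The part of these differences in the values below was not tested.

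The comparison asked which steps of monoamine handling differ in transcript level between resting SPORTS and wild type rats. Of the 9 genes, Ddc was higher in SPORTS, 2.07-fold, and Slc18a1 was lower, 2.33-fold. The other 7 did not pass the threshold: Th, Slc6a2, Slc6a3, Slc18a2 and Dbh differed by 0.56 to 1.40 with SE of 0.24 to 1.25, and Maoa and Maob by 0.15 and 0.07. A share of 1 higher and 1 lower of 9 genes is near the share over all 11032 genes tested, of which 12.9% were higher, 11.4% were lower and 24.3% were called in either direction. At the level of probes, 1 of 10 was called higher and 1 lower, against 11.1% and 10.1% of all tested probes (21.1% in either direction). With the median of each array subtracted in place of the 75th percentile, all tested probes split into 1696 higher and 2379 lower, where the main setting gave 2283 and 2081. With the slide row fitted as a block, 1 of the 10 was called, Slc18a1, against 7.73% of all tested probes, and without SPORTS 1 the calls were 2 of 10, against 13.7%. The median difference of the 9 genes was 0.73, and that of all tested genes was 0.01. The first value is that of Dbh, and it was 0.45 without SPORTS 1, 0.49 without wild type 1 and 0.52 with slide row as a block. In bulk tissue, fewer cells of a type and less RNA per cell cannot be told apart, and the same holds for more cells and more RNA per cell.

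Of the 10 tested probes, 7 had groups that did not overlap, 6 with all SPORTS arrays above and 1 with all SPORTS arrays below, while 41.9% of all tested probes did not overlap (21.4% with SPORTS above and 20.5% with SPORTS below). The 6 probes with SPORTS above belonged to Ddc (both of its probes), Slc6a3, Slc18a2, Maoa and Maob, and the probe with SPORTS below to Slc18a1. Slc6a3 passed the filter on dim probes through the SPORTS arrays only and Dbh through the wild type arrays only.

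**Figure D1:**
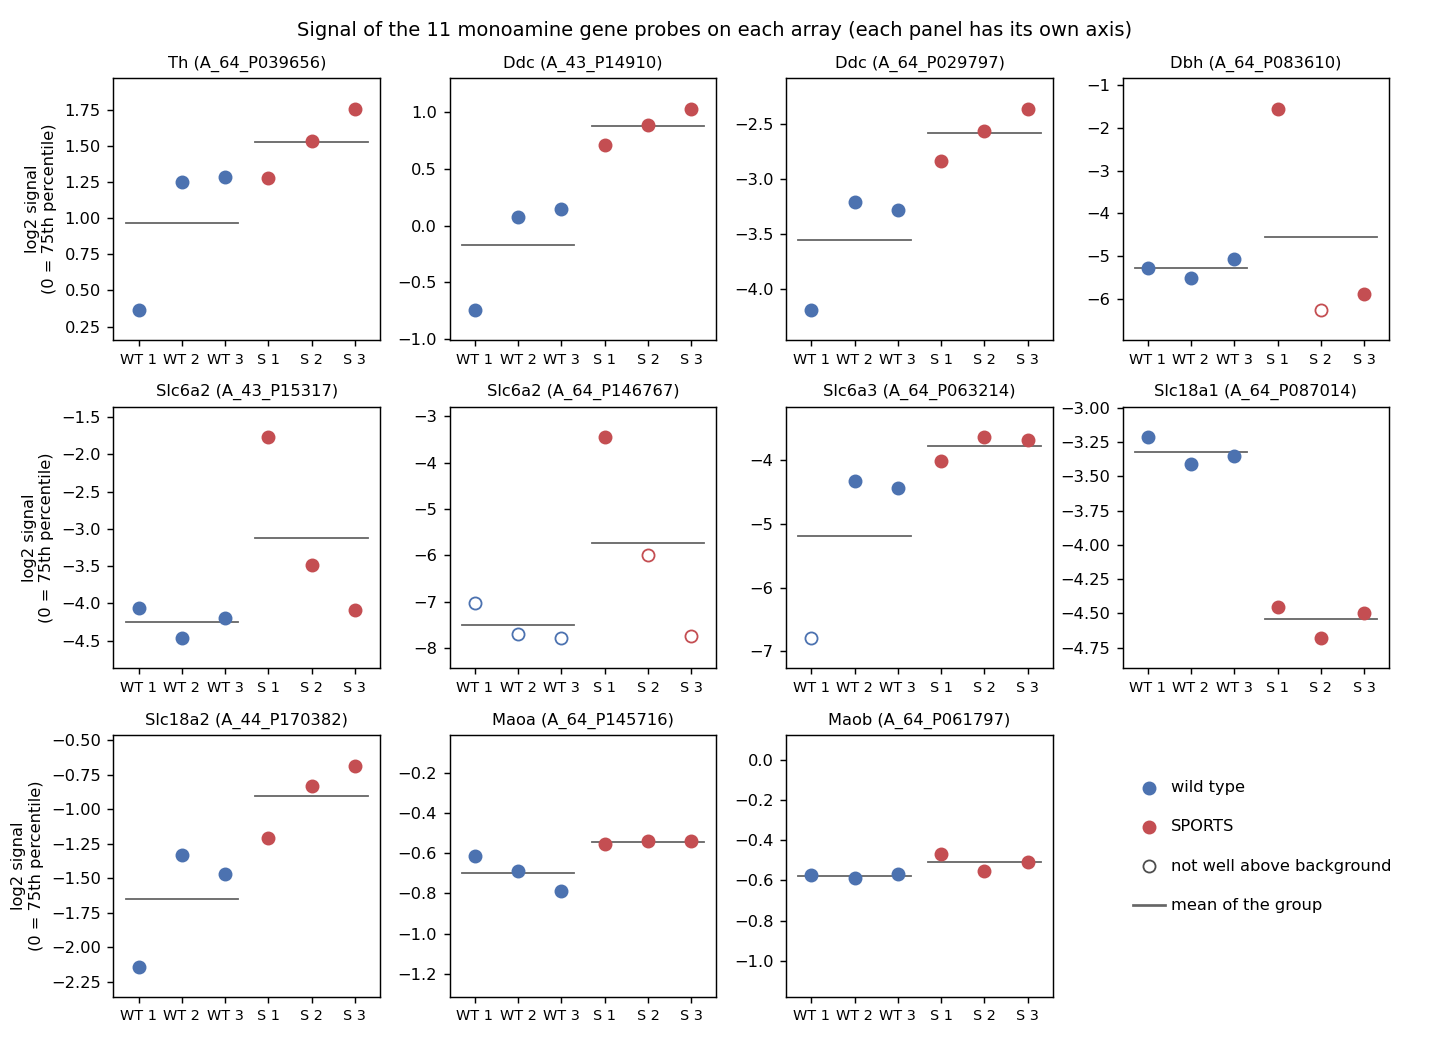
Normalised log2 signal (0 is the 75th percentile of the array) of every probe of the 9 genes on each of the 6 arrays, with the group means as bars; open symbols mark arrays on which the probe was not well above background. Slc18a1 is low on all 3 SPORTS arrays, and Dbh and both Slc6a2 probes are highest on SPORTS 1.

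Tyrosine hydroxylase, the rate-limiting enzyme of catecholamine synthesis, is encoded by Th (transcript NM_012740 as the array names it). Its signal was 0.37, 1.25 and 1.29 in wild type 1 to 3 and 1.28, 1.54 and 1.76 in SPORTS 1 to 3. Wild type 1 was the low array, and the groups overlapped, because SPORTS 1 lay just under wild type 3. The means were 0.97 ± 0.52 (SD, n = 3) and 1.52 ± 0.24 (SD, n = 3). The difference was 0.56 ± 0.28 (SE) and did not pass (limma adjusted p = 0.217). Without wild type 1 it was 0.25 (limma adjusted p = 0.307), and within slide row 2 it was 0.24.

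Ddc, the gene of aromatic L-amino acid decarboxylase, had a pair of probes to the same transcript, NM_012545. The first read -0.74, 0.08 and 0.15 in wild type 1 to 3 and 0.71, 0.89 and 1.03 in SPORTS 1 to 3. All SPORTS arrays were above all wild type arrays, and wild type 1 was again the lowest. The difference was 1.05 ± 0.25 (SE; limma adjusted p = 0.0345), from -0.17 ± 0.49 (SD, n = 3) in wild type to 0.88 ± 0.16 (SD, n = 3) in SPORTS. The second Ddc probe, a single spot on each array, read -4.19, -3.21 and -3.28 in wild type and -2.83, -2.57 and -2.36 in SPORTS. Its groups did not overlap either, wild type 1 was again lowest, and its difference, 0.97 ± 0.29 (SE), just missed the threshold (limma adjusted p = 0.0637). With both probes averaged, the difference of Ddc was 1.01 ± 0.27 (SE; limma adjusted p = 0.0381). The call on the first probe ended when dim probes were kept (limma adjusted p = 0.0923) and with a trended and robust variance model (limma adjusted p = 0.0598). It also ended without wild type 2 or any 1 of the SPORTS arrays (limma adjusted p of 0.057, 0.0722, 0.0964 and 0.106). Nor was it kept with slide row as a block or within slide row 2, where the difference was 0.73 against wild type 3 alone. Without wild type 1 the difference was 0.76 and the call was kept (limma adjusted p = 0.0137).

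Dopamine beta-hydroxylase, made by noradrenaline and adrenaline neurons, is encoded by Dbh (NM_013158). Its signal was -5.28, -5.50 and -5.08 in wild type 1 to 3 and -1.55, -6.25 and -5.87 in SPORTS 1 to 3. SPORTS 1 stood far above the other 5 arrays, and SPORTS 2 and SPORTS 3 stood below all wild type arrays. In Feature Extraction's processed intensity, SPORTS 1 had 540 units and the other arrays had 20.7 to 47.1 units. Both spots of the probe on SPORTS 1 were bright, at 529 and 551 units. On SPORTS 2 the probe was not well above background. The difference of the group means, 0.73 ± 1.25 (SE; limma adjusted p = 0.73), therefore described neither SPORTS 1 nor the other SPORTS rats. Without SPORTS 1 the difference was -0.78 ± 0.17 (SE; limma adjusted p = 0.0486), so that the direction turned. That call of lower rests on a probe that the filter kept through its wild type arrays alone and on SPORTS 2, where it was not well above background. With the slide row as a block as well it was -0.99 (limma adjusted p = 0.101).

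The noradrenaline transporter, which clears noradrenaline and also dopamine from the extracellular space, is encoded by Slc6a2. Its tested probe, 1 spot per array, read -4.06, -4.47 and -4.20 in wild type 1 to 3 and -1.77, -3.49 and -4.09 in SPORTS 1 to 3. SPORTS 1 was the high array, SPORTS 2 came next, and SPORTS 3 lay within the wild type range. The difference was 1.13 ± 0.58 (SE; limma adjusted p = 0.235), and 0.45 without SPORTS 1 (limma adjusted p = 0.241). The second Slc6a2 probe was well above background on SPORTS 1 alone and was not tested. It had 144 processed units there and 7.17 to 24.8 units on the other 5 arrays. Its spots agreed on SPORTS 1, at 138 and 152 units, and disagreed on SPORTS 2, at 90.0 and 6.81 units, so the value of SPORTS 2 is uncertain for this probe.

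The dopamine transporter gene Slc6a3, which marks midbrain dopamine neurons, had a signal of -6.79, -4.33 and -4.44 in wild type 1 to 3 and -4.02, -3.64 and -3.69 in SPORTS 1 to 3. Wild type 1 was far below the other arrays and was the only array on which the probe was not well above background. The other arrays lay close together, with all SPORTS arrays above wild type 2 and wild type 3. The difference was 1.40 ± 0.67 (SE; limma adjusted p = 0.203). Without wild type 1 it was smaller, with a smaller SE, 0.60 ± 0.13 (SE; limma adjusted p = 0.0442). That was the only call among 16 alternatives, and it rests on a probe that the filter kept through its SPORTS arrays alone. With slide row as a block the difference was 0.66 (limma adjusted p = 0.716).

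Slc18a1 (NM_013152) encodes vesicular monoamine transporter 1, known mainly from endocrine cells such as the chromaffin cells of the adrenal medulla. Its signal was -3.21, -3.41 and -3.35 in wild type 1 to 3 and -4.45, -4.68 and -4.50 in SPORTS 1 to 3. The arrays of each group lay within a narrow band, and the groups were far apart. In processed units, wild type had 154 to 170.0 and SPORTS had 61.5 to 72.2. The difference was -1.22 ± 0.08 (SE; limma adjusted p = 0.000609), from -3.32 ± 0.10 (SD, n = 3) to -4.54 ± 0.12 (SD, n = 3). The call was kept under all 17 alternatives tried, with a difference between -1.27 and -0.70, the smallest of them with normexp background correction. Of these alternatives, the deposited matrix could only repeat the main result. With slide row as a block, against wild type 3 alone, the difference was -1.19.

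Vesicular monoamine transporter 2, the form that loads dopamine, noradrenaline and serotonin into vesicles of brain neurons, is encoded by Slc18a2. Its signal was -2.14, -1.33 and -1.47 in wild type 1 to 3 and -1.21, -0.83 and -0.68 in SPORTS 1 to 3. All SPORTS arrays were above all wild type arrays, with SPORTS 1 close to wild type 2 and wild type 1 lowest. The difference was 0.74 ± 0.24 (SE) and did not pass (limma adjusted p = 0.0884). It passed under 0 of 17 alternatives in limma, with an adjusted p of 0.069 to 0.408 and differences of 0.49 to 0.90. The unadjusted p over all 6 arrays was 0.0244. The vesicular pair thus had differences of opposite sign, of which the negative one, that of Slc18a1, was called.

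Maoa, whose enzyme prefers serotonin and noradrenaline, had a signal of -0.61, -0.69 and -0.79 in wild type 1 to 3 and -0.55, -0.54 and -0.54 in SPORTS 1 to 3. The SPORTS arrays were nearly equal and lay just above the highest wild type array. The difference was 0.15 ± 0.05 (SE), a ratio of 1.11, and did not pass (limma adjusted p = 0.0925). Maob, whose enzyme prefers phenylethylamine, read -0.57, -0.59 and -0.57 in wild type and -0.47, -0.55 and -0.51 in SPORTS. Its groups did not overlap but were separated by less than the range of the SPORTS arrays. The difference was 0.07 ± 0.04 (SE; limma adjusted p = 0.253), a ratio of 1.05.

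**Figure D2:**
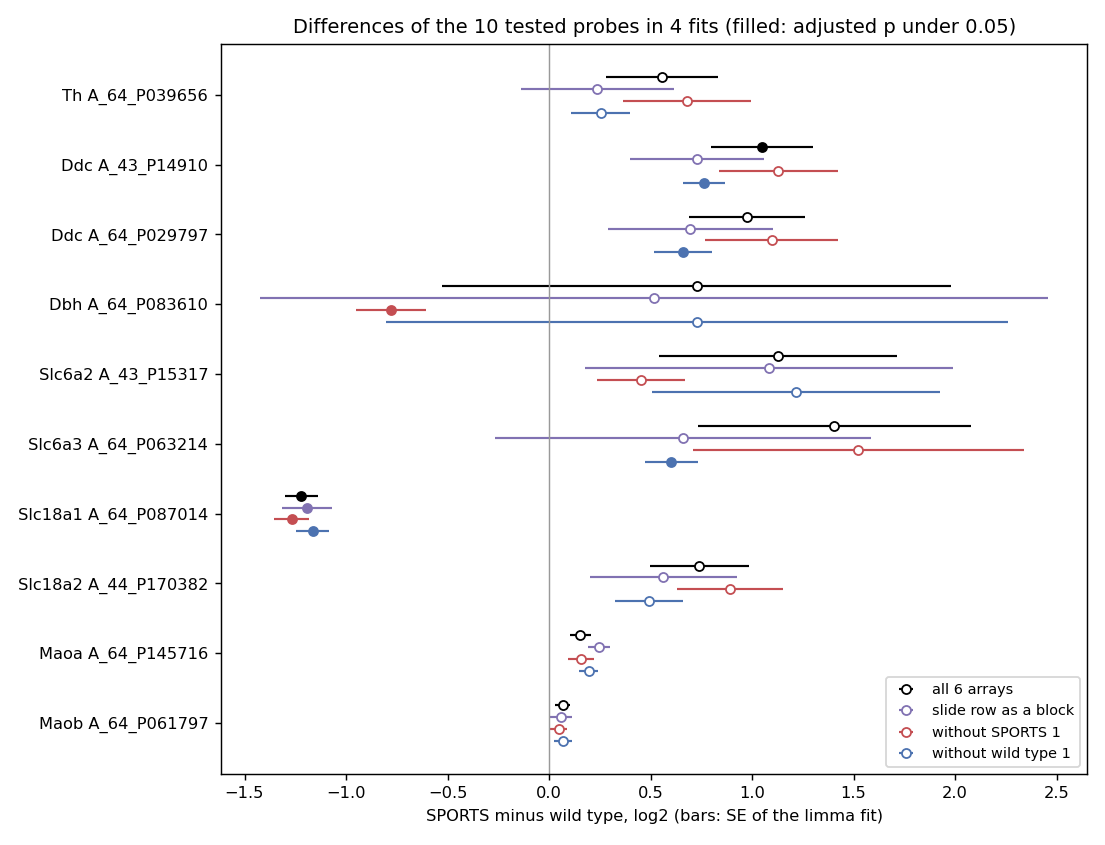
Difference between SPORTS and wild type (log2) for each tested probe of the 9 genes, with bars of 1 SE, from all 6 arrays, without SPORTS 1, without wild type 1 and with slide row as a block; filled points passed the threshold. Dbh changes sign without SPORTS 1, Slc6a3 falls from 1.40 to 0.60 without wild type 1, and Slc18a1 stays between -1.27 and -1.16.

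Dbh and Slc6a2 were the only genes of the 9 for which SPORTS 1 lay at least 1 log2 unit above every other array. SPORTS 1 exceeded the highest of the other 5 arrays by 3.53 for Dbh and by 1.72 for the tested Slc6a2 probe. The other Slc6a2 probe was well above background on SPORTS 1 alone. Among all tested probes, 52 (0.252%) had SPORTS 1 at least 1 log2 unit above the other 5 arrays, and 2 of these 52 were the Dbh probe and the tested Slc6a2 probe. For Th, Ddc, Slc6a3 and Slc18a2, SPORTS 1 was the lowest of the SPORTS arrays. Some markers of the cerebellum were also highest on this array. The Purkinje cell gene Pcp2 read -0.51 on SPORTS 1 and -3.75 to -3.54 on the other arrays, and Car8, also of Purkinje cells, read 0.34 against -1.59 to -1.42. Pcp4 and Itpr1, the cerebellar list's 2 called genes, fell in SPORTS by 0.51 and 0.32 (limma adjusted p = 0.0211 and 0.0335), and Pcp4 was lowest on SPORTS 1, at 1.98 against 2.26 to 2.77 on the other arrays. Over the whole cerebellar list, 13 of 15 genes were tested, and SPORTS 1 was the highest of the 6 arrays for 10 of the 13. The summed linear signal was 33.1 on SPORTS 1, 27.8 to 28.4 on the other SPORTS arrays and 32.8 to 34.6 in wild type. That sum mainly follows the bright probes of Itpr1, Pvalb and Pcp4, with wild type means of 4.1, 2.8 and 2.7. The wild type means of the other tested genes of the list were -0.68 or lower. The sum therefore says little about dimmer genes such as Pcp2 and Car8. Whether Itpr1 and Pcp4 report cerebellum in these samples was not tested. The granule cell genes Gabra6 and Fat2 were not tested, because they were not well above background on all arrays of either group. Of the hindbrain and spinal cord list only Slc6a5 and Glra1 were tested. Slc6a5, the glycine transporter of inhibitory neurons of the brainstem, read -3.86, -3.70 and -3.70 in wild type and -2.19, -2.90 and -2.68 in SPORTS, again highest on SPORTS 1. All SPORTS arrays were above all wild type arrays, and its difference was 1.17 ± 0.18 (SE; limma adjusted p = 0.00897). That call was kept without SPORTS 1 alone and ended with slide row as a block and within slide row 2. Glra1, a glycine receptor subunit gene, read -3.00 on SPORTS 1, within the wild type range of -3.11 to -2.86. The part of these markers in the Dbh and Slc6a2 values was not tested.

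Wild type 1 stood apart for another set of the genes. It lay below the mean of wild type 2 and wild type 3 by 0.90 for Th, 0.85 for Ddc and 0.74 for Slc18a2, ratios of 1.87, 1.81 and 1.67. For Slc6a3, not well above background on wild type 1, the ratio was at least 4.99, a bound against the lowest signal well above background on that array. Over all tested probes, 839 (4.06%) had wild type 1 lower than that mean by at least 0.5. Chosen after their values were seen, the GDNF receptor gene Ret was 2.13-fold and Gch1 1.55-fold lower on wild type 1 than the mean of the other wild type arrays. Other genes of the related lists were mixed. Some were low there too: Tfap2b read -2.99 on wild type 1 against -2.33 and -2.32 on wild type 2 and wild type 3. Gal read -1.35 against -0.55 and -0.42, and Slc22a2 read -6.05 against -5.60 and -5.28. Some were not low: Tph2 read -4.80 on wild type 1 against -4.67 and -4.96, and Pts read -1.89 against -1.94 and -1.93. Against wild type 2 and wild type 3 alone, the difference was 0.76 for Ddc (limma adjusted p = 0.0137) and 0.60 for Slc6a3 (limma adjusted p = 0.0442), and it did not pass for Th (0.25, limma adjusted p = 0.307) or Slc18a2 (0.49, limma adjusted p = 0.122). The filter kept the Slc6a3 probe through its SPORTS arrays alone. Slide row 1 held wild type 1 and wild type 2, and the part of slide row in these values was not tested.

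**Figure D3:**
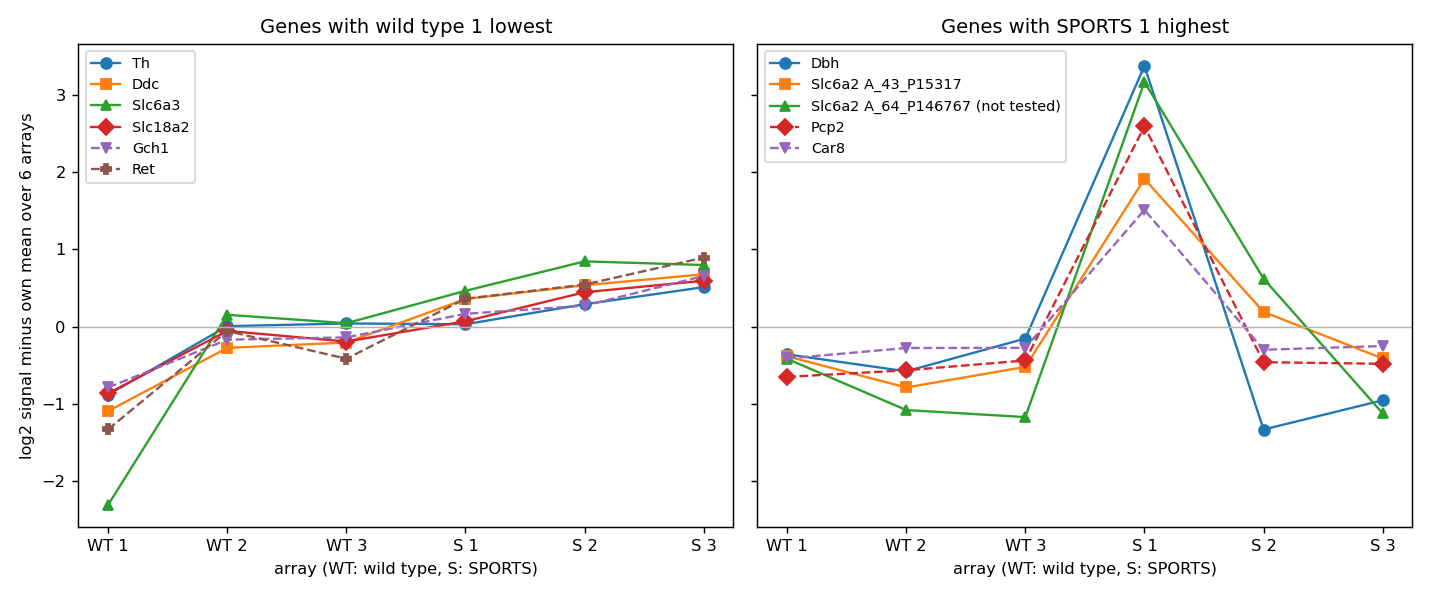
Signal of each gene on each array, as the difference (log2) from its own mean over the 6 arrays; lines join the values of 1 gene and carry no order. Dbh and Slc6a2 peak on SPORTS 1, as Pcp2 and Car8 do, while Th, Ddc, Slc6a3 and Slc18a2 dip on wild type 1.

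The promoters of Th and Slc18a2, which followed a like course over the arrays, are shown with that of Dbh, which did not, to set the sequence before the start of each gene beside its values. Sequences are from RefSeq on build GRCr8, 250 bases up to the RefSeq start of the gene, 5′ to 3′ in the direction of transcription. Capitals mark the cyclic AMP response element TGACGTCA, the AP-1 letters TGANTCA and, in Dbh, TGCGTCA, an element of CRE and AP-1 type described for the rat Dbh promoter. Th lies on the minus strand at chr1:207508219-207508468, Slc18a2 on the plus strand at chr1:268399771-268400020, and Dbh on the plus strand at chr3:30886078-30886327.
Th: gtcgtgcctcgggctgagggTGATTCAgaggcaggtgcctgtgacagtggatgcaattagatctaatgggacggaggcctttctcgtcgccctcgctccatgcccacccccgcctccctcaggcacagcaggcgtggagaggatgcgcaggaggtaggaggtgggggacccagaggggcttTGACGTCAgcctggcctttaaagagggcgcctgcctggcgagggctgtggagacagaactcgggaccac
Slc18a2: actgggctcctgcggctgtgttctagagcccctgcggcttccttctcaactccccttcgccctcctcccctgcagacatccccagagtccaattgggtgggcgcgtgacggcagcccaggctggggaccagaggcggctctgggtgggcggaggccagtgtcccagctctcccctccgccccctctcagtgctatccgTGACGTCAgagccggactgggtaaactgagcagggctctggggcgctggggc
Dbh: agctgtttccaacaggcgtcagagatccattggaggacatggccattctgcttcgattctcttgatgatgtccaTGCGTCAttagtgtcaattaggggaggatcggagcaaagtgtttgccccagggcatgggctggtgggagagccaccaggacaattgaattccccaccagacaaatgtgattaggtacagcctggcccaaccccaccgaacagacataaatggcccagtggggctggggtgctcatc
The cyclic AMP response element stood 69 to 62 bases before the start in Th and 52 to 45 bases before it in Slc18a2. Searched on both strands, it was present in 531 of 33469 rat promoters of this length (1.59%). Th also held the AP-1 letters 230 to 224 bases before the start, which 6.34% of promoters held. The TGCGTCA of Dbh lay 176 to 170 bases before the start, and 1.66% of promoters had it. RefSeq promoters matched 7 of the 9 genes, with 9 entries because Ddc has 3. The Slc6a3 promoter held none of the motifs searched, and no Ddc entry held the cyclic AMP response element. Slc6a3 and Ddc were low on wild type 1 as Th and Slc18a2 were. In 1 Ddc entry the AP-1 letters lay 163 to 157 bases before the start. A further pair of motifs, the NBRE AAAGGTCA and the TATA letters TATAAA, was searched and occurred in 1.24% and 12.9% of all promoters. Both lay in 1 Ddc entry on the minus strand, where they overlap. A match is a description of letters, and the arrays did not measure binding.

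The same pathway holds further enzymes and carriers outside the 9 genes, and 13 of 16 such genes were tested. Of these 13, 3 were higher in SPORTS and 1 was lower, and their median difference was 0.01. Tph2, the rate-limiting enzyme of serotonin synthesis in the brain, rose by 1.48 ± 0.23 (SE; limma adjusted p = 0.00888), and the organic cation transporter gene Slc22a2 rose by 1.18 ± 0.19 (SE; limma adjusted p = 0.0107). Neither was called when slide row was a block (limma adjusted p of 0.0592 and 0.0696). The related carrier gene Slc22a3, which takes up monoamines at low affinity, fell by 0.67 ± 0.08 (SE; limma adjusted p = 0.00433). That call ended within slide row 2 and with the block without SPORTS 1 (limma adjusted p = 0.102 for the latter). Aldehyde dehydrogenases act after monoamine oxidase. Aldh1a1, which dopamine neurons make, rose by 0.49 ± 0.10 (SE; limma adjusted p = 0.0208), and was not called without wild type 3 or any 1 of the SPORTS arrays (limma adjusted p of 0.0528 to 0.0714), with the block or with dim probes kept. Aldh2 differed by 0.00 ± 0.05 (limma adjusted p = 0.983) and took either sign among the alternatives. So did the plasma membrane monoamine transporter gene Slc29a4, at 0.01 ± 0.07 (SE; limma adjusted p = 0.904). Slc6a4 was well above background on all 3 SPORTS arrays and on no wild type array, at least 3.1-fold higher in SPORTS, which is a bound against the lowest signal well above background on each wild type array or the probe's own signal where higher. Slc6a4 thus passed the filter through SPORTS only, and its p values rest on wild type signals that were not well above background. It did not pass the threshold (limma adjusted p = 0.0576). It was called in 2 of 16 alternatives, quantile normalisation (limma adjusted p = 0.0295) and the trended and robust variance model (limma adjusted p = 0.0425). With normexp background correction its fitted difference was 0.77 on the log2 scale.

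Tetrahydrobiopterin, the cofactor of tyrosine and tryptophan hydroxylase, was represented by 6 tested genes of 7. In limma's test 2 rose and 0 fell, and 3 were higher and 0 lower at an unadjusted p under 0.05. The share of all tested genes at that unadjusted level was not counted. Gchfr, the feedback regulator of GTP cyclohydrolase, rose by 0.62 ± 0.07 (SE; limma adjusted p = 0.00254), and Pts rose by 0.22 ± 0.04 (SE; limma adjusted p = 0.00933). Gch1, the rate-limiting enzyme of the cofactor, differed by 0.73 ± 0.22 (SE; limma adjusted p = 0.065). Qdpr and Spr, which regenerate the cofactor and complete its synthesis, differed by 0.06 ± 0.06 (SE; limma adjusted p = 0.53) and -0.07 ± 0.05 (SE; limma adjusted p = 0.356). With slide row as a block, 1 of the 6 genes, Gchfr, was called. That call ended with the block without SPORTS 1 (limma adjusted p = 0.077).

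Transcription factors that specify monoamine neurons were mostly too dim to test. Of 16 listed, 5 were tested, and Phox2a, Hand2, Fev, Pitx3, En2, Foxa1 and Foxa2 were on the array without passing the filter. Tfap2b rose by 1.07 ± 0.21 (SE; limma adjusted p = 0.0193), a call that ended with the block (limma adjusted p = 0.164), with dim probes kept and without any 1 of the SPORTS arrays (limma adjusted p of 0.0504 to 0.0593). Nr4a2, a factor of dopamine neurons, differed by 0.10 ± 0.08 (SE; limma adjusted p = 0.448) and was -0.06 with the block. Lmx1a, also of dopamine neurons, read -4.32, -3.96 and -3.98 in wild type 1 to 3 and -5.13, -3.73 and -3.12 in SPORTS 1 to 3, lowest on SPORTS 1. Its difference was 0.09 ± 0.50 (SE; limma adjusted p = 0.917), and 0.66 without SPORTS 1 (limma adjusted p = 0.12). Gata3, of serotonin neurons, was well above background on all 3 SPORTS arrays and on 1 of 3 wild type arrays, so that it passed the filter through SPORTS only. Its fitted difference was 1.59 ± 0.52 (SE; limma adjusted p = 0.0852), and 0.49 with normexp. Of 9 other genes listed for monoamine neurons, 7 were tested and 2 rose, and bulk RNA does not show in which cells. Calca rose by 0.96 ± 0.16 (SE; limma adjusted p = 0.0108) and the synuclein gene Sncg by 0.85 ± 0.19 (SE; limma adjusted p = 0.0307). Neither was called with the block. Sncg was also not called without wild type 3 or any 1 of the SPORTS arrays (limma adjusted p of 0.0547 to 0.0916). In limma's test 0 of these 7 fell, and 1 was lower at an unadjusted p under 0.05, a level at which the share of all tested genes was not counted. Without wild type 1, 2 of the 7 were called higher and 2 lower. Galanin, a peptide of noradrenaline neurons, differed by -0.41 ± 0.27 (SE; limma adjusted p = 0.34). Without wild type 1 its difference was -0.70 and was called (limma adjusted p = 0.0473). Cartpt differed by -0.29 ± 0.42 (SE; limma adjusted p = 0.675), which was 0.02 without SPORTS 1. All of these lists were chosen with earlier results of these data known.

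**Figure D4:**
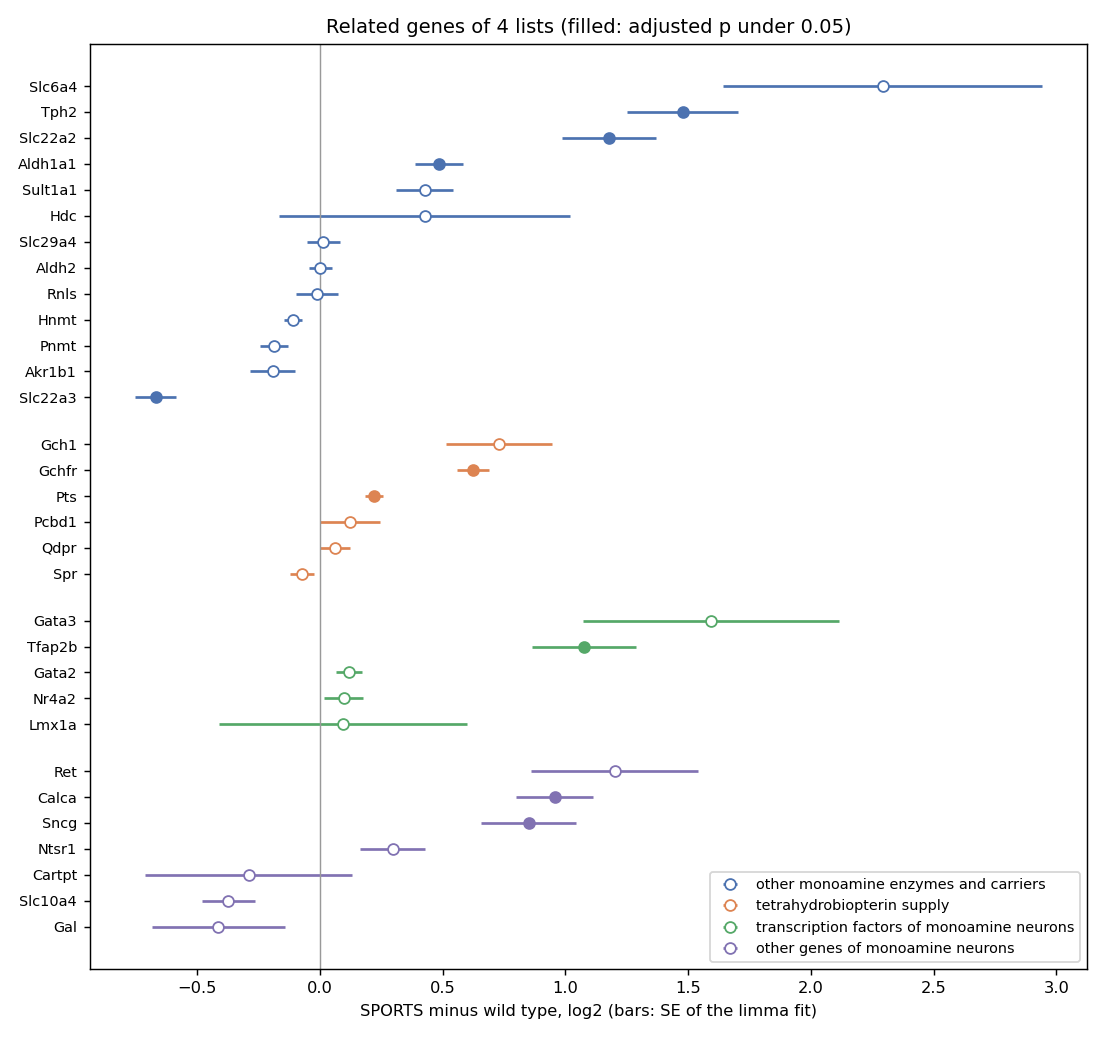
Difference between SPORTS and wild type (log2, with bars of 1 SE) for the tested genes of the lists of other monoamine enzymes and carriers, cofactor supply, transcription factors and other genes of monoamine neurons. Filled points passed limma's adjusted p threshold of 0.05; of the filled points, Tph2 lies highest, at 1.48, and Slc22a3 lowest, at -0.67.

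Profiles over the 6 arrays were compared between Th, Ddc, Dbh, Slc6a2 and Slc18a1 and the 11017 tested genes outside the 9, by the root mean square distance between log2 profiles centred on their own means. This is a description over 6 arrays that also share the difference between the groups. The 5 genes nearest to Dbh were Pcp2 (0.54), Galnt6 (0.58), Ppp1r17 (0.78), Phc3 (0.82) and Det1 (0.87), where Dbh itself spread by 1.56 about its mean. Those nearest to the tested Slc6a2 probe were Cenpc (0.30), Pierce1 (0.31), Phc3 (0.33), Det1 (0.34) and Car8 (0.35), against a spread of 0.90. Phc3 and Det1 stand in both sets. All 8 genes of these sets were highest on SPORTS 1, which a choice by nearness to profiles that peak there favours. The nearest profiles to Th, which spread by 0.43, were those of P2rx2 (0.09), Actg2 (0.10), Cryba4 (0.13), Gch1 (0.14) and Ovol1 (0.14). Gch1 makes the cofactor of tyrosine hydroxylase, and P2rx2 is an ATP-gated channel. Ddc, with a spread of 0.60, was nearest to Slc27a2 (0.14), Foxb1 (0.15), Slc22a2 (0.17), Krt25 (0.18) and Ret (0.18). Among the nearest to Slc18a1 were Rtel1 (0.07), Casq2 (0.08), P2rx4 (0.08) and Lingo3 (0.08), against a spread of 0.62. All 4 were lower on every SPORTS array than on every wild type array, which the choice by nearness to Slc18a1 likewise favours.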

How the data were processed

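The deposited scan files hold the intensity of each spot, which the authors extracted with Agilent Feature Extraction 10.10.1.1, per the submitters' processing notes, with a background-subtracted processed signal and spot flags for background, saturation and outliers, per the file headers. A further deposited matrix repeats these intensity values, each array scaled by a factor of its own (1.38 to 1.47) that no source used here explains. It has 0 columns of other samples.

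Of 62976 spots, 58717 were not controls. Outlier-flagged values (3075) were left out, spots of a probe were averaged as log2, and the 75th percentile of each array (1530 to 1628 units) was subtracted. The files name transcripts and not genes, so symbols came from matching transcripts to the RefSeq gene list (13089 tested probes, 11032 genes). The filter on dim probes asked that more than a share of 0.5 of a probe's spots be well above background on every array of SPORTS or of wild type, and that every array have a spot that was no outlier. In lists, a gene with several tested probes was represented by the one with the highest mean signal. Groups were compared with limma 3.58.1 in R 4.3.3 (lmFit and eBayes, two-sided, Benjamini-Hochberg over 20657 probes), after import through data.table (1.17.8). The procedure was also run on simulated data with independent normal noise and added changes. That simulation held no slide row effect and no array standing apart, so it does not bear on either.

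The 17 alternatives were other normalisations, normexp background correction (offset 50, planned on the mean spot signal and run on the median), the deposited matrix, other filters, outliers kept, a trended and robust variance model, the slide row as a block, slide row 2 alone, each array left out, and the block without SPORTS 1. They are not 17 independent checks: the deposited matrix must repeat the main result, and the block and slide row 2 alone share each difference. The 9 genes and the lists were chosen with earlier results of these data known. Named were all 9 genes, up to 4 called genes of a list with the largest differences and up to 2 with the highest signal, and the 5 genes nearest in profile to Th, Ddc, Dbh, Slc6a2 and Slc18a1. Of the genes so named and listed, 3 are not reported here, and the lists are counted without them. Of the marker lists only the genes that a result turns on are printed. Chosen after their values were seen were Car8, Gabra6, Fat2, Slc6a4, Gata3, the wild type 1 values, the untested factors and, beside the profiles, Pcp2, Ret and Gch1.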

Additional observations from a re-analysis of the deposited data

How the results depend on the processing

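No paired analysis was possible because the replicate numbers were given in order of deposition and the labels pair no rats. Of the alternative values of the 10 tested probes, 153 kept their direction and their side of the threshold, 9 lost the call, 4 gained one and 2 reversed. Averaging the probes of a gene changed no call among the 9 genes. Of the other named genes' values, 353 kept both, 38 lost the call, 12 gained one and 20 reversed. The cause of the changes was not tested.

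Of the tested probes of the 9 genes, 1 was called higher and 1 lower. The number called higher was 3 with normexp, and 0 in limma without the filter, with the trended and robust model, with the slide row as a block, within slide row 2 alone and with the block without SPORTS 1, where 4, 4, 1, 4 and 1 were higher at an unadjusted p under 0.05. The share of all tested probes at that unadjusted level was not counted, so these numbers have no background to be read against. Leaving out 1 array gave 0 to 3 called higher, with 3 without wild type 1 and 0 without wild type 2 or any SPORTS array. It gave 1 to 2 called lower, with 2 without SPORTS 1. Over all probes, 2283 were called higher and 2081 lower. These became 1696 and 2379 with the median shift, 1235 and 1108 without the filter, 741 and 856 with the block, 598 and 622 within row 2, and 294 and 377 with the block without SPORTS 1. Leaving out 1 array gave 1356 to 1786 higher and 1123 to 1558 lower.

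Dbh reversed without SPORTS 1 (-0.778) and with the block without SPORTS 1 (-0.988), and spanned -0.778 to 1.57 over the arrays left out. The other reversals follow. Aldh2 was -0.038 with the median shift, -0.016 with normexp, -0.012 with the block without SPORTS 1, and -0.038 to 0.032 over the arrays left out. Nr4a2 was -0.056 with the block and within row 2, and -0.070 with the block without SPORTS 1, where Car8 was -0.001 and Pcp2 -0.032. Glra1 was 0.018 with normexp and -0.074 to 0.049 over the arrays left out, Cartpt was -0.745 to 0.017 over them, and Slc29a4 was -0.026 with the median shift and -0.055 to 0.066 over them. Lmx1a was -0.012 with the block and within row 2, and -0.345 without SPORTS 3 to 0.662 without SPORTS 1 over the arrays left out. Signal over background limits Dbh, Slc6a3 and the second Slc6a2 probe, which were not well above background on at least 1 array.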

Other observations

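Counts of extreme arrays put the 9 genes beside the rest of the array. Wild type 1 was the lowest of the 6 arrays for 5 of their 10 tested probes, against 25.5% of all tested probes. SPORTS 3 was the highest for 4 of the 10, against 16.8% of all, and SPORTS 1 for 3, against 21.4%. Probes at least 1 log2 unit below the other 5 arrays numbered 52 on wild type 1, with the Slc6a3 probe among them, and 0 to 22 on each of the other arrays. Probes at least 1 log2 unit above the other 5 arrays were found on every array, from 3 on wild type 1 to 67 on wild type 3, so that SPORTS 1, with 52, was not the array with the most such probes. No gene of the 9 was among the 67 of wild type 3.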
